A study of Mus musculus with 9 samples.

Results

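Testis RNA from mice given blood exosomes of wild-type mice was compared with testis RNA from mice given PBS. The comparison used 6 of the 9 libraries of the study, 3 of each group. Its members were the 14097 of 55401 annotated genes with an FPKM (fragments relative to gene length and sequencing depth) of at least 1 in at least 3 of these 6 libraries. All mice carried the same lesion, a depletion of germ cells by busulfan, an alkylating drug. BP libraries (replicates 5, 6 and 7) came from mice that received PBS and busulfan, and BE libraries (replicates 6, 7 and 8) from mice that received exosomes and busulfan. The third group of the study, BdE, had exosomes from mice with an imbalanced gut microbiota, and here entered only the estimate of the spread between libraries. The labels give no strain, age, dose or interval, and do not say whether each library was a separate animal. P-values therefore measure the spread between these libraries, which may be technical.

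Spermatogenesis starts from spermatogonia, which divide, enter meiosis as spermatocytes and mature through round and elongating spermatids. Busulfan kills dividing spermatogonia, and the later stages then run out, leaving tubules made mostly of Sertoli cells, with peritubular myoid cells around them and Leydig cells and macrophages between them. Exosomes are small vesicles released by cells that carry RNA, protein and lipid, and those in blood come from many cell types.

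CPM are counts scaled to a common library total, and they were scaled by TMM unless stated. The 6 libraries held 57923652 to 70103125 counts. A library with 0 counts may hide as much as 3 counts, which were worth 0.0428 to 0.0518 CPM without TMM scaling. Such limits cover counting error only. The tissue label was checked against its markers. All 22 Sertoli cell genes and all 15 Leydig cell genes of the lists passed the FPKM filter, and Clu, a secreted Sertoli cell glycoprotein, stood at 9755 to 10590 CPM in the 6 libraries. Only 2 of 15 photoreceptor genes passed, which matters because the extraction text of the labels speaks of retinas. Prm1, a sperm protamine, had 0 to 19 counts in every library, while Smcp, also a gene of late spermatids, had 1141 to 13382. The study had no library without busulfan, so the extent of the germ cell depletion could not be measured. Testis holds many cell types, so fewer cells of a type and less RNA per cell cannot be told apart in any result below.

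The BE libraries did not form a tight group. BE 6 lay within the range of the 3 BP libraries in 49.2% of the genes, against 20.3% for BE 7 and 23.3% for BE 8. The mitochondrial share of counts was 7.10, 7.45 and 8.01% in BP and 7.19% in BE 6, but 14.5% in BE 7 and 14.2% in BE 8. The rank correlation of gene length with the level relative to the other libraries lay between 0.179 and 0.265 for the BP libraries. It was 0.232 for BE 6, -0.187 for BE 7 and -0.199 for BE 8. BE 7 and BE 8 both stood above every BP library in 4356 genes. Of these, BE 6 was on the same side in 1023, within the BP range in 1985 and below every BP library in 1348. They both stood below every BP library in 4465 genes, and there BE 6 was on the same side in 1027, within the range in 2061 and above every BP library in 1377. Among the BP libraries, BP 5 stood apart by its epididymal transcripts, described further on.

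**Figure D1:**
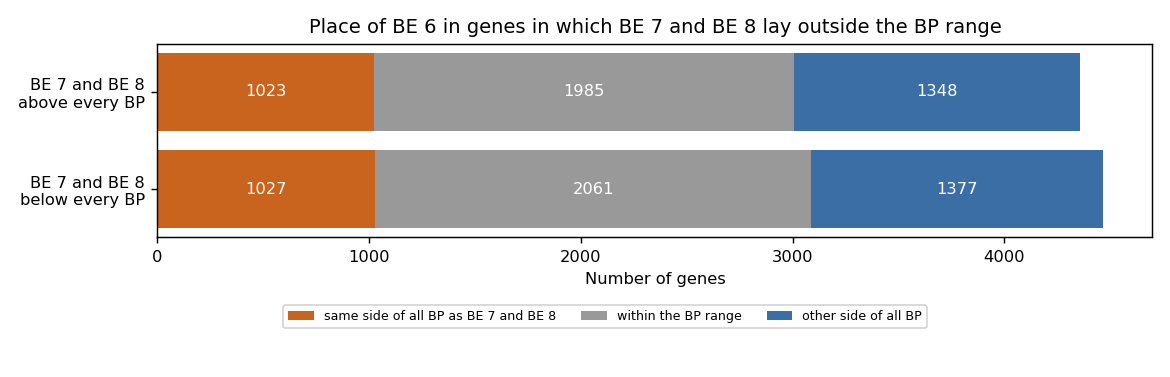
Number of genes in which BE 7 and BE 8 both lay above (upper bar) or below (lower bar) every BP library, split by the place of BE 6: same side (orange), within the BP range (grey) or the other side (blue). BE 6 shared the side of BE 7 and BE 8 in 1023 and 1027 genes and lay on the other side in 1348 and 1377.

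With all libraries in the model, 2 genes passed the threshold (edgeR quasi-likelihood test, two-sided, adjusted p under 0.05 by Benjamini-Hochberg over all 14097 genes), or 0.0142% of those tested, and both rose in BE. The median log2 fold change over all genes was 0.00238. At an unadjusted p under 0.05, 1123 genes (7.97%) were higher and 702 (4.98%) lower. Without a model, 1023 genes (7.26%) lay above BP in every BE library and 1027 (7.29%) below it. Without BE 6 the edgeR count was 4358, with 2018 genes (14.3%) higher and 2340 (16.6%) lower. BE 6 was singled out because it lay near BP, and its p-values take no account of this choice. Of the 4358 genes, 903 did not overlap between the groups when BE 6 was put back. Leaving out BP 5 as well gave 3096 genes, 2976 of them among the 4358.

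Ccdc71, a coiled-coil protein gene, was the one with the smallest p. It is ENSMUSG00000049305 on chromosome 9, 108460527 to 108465938 (GRCm38, plus strand). Its level was 18.1, 16.7 and 23.3 CPM in BP 5, 6 and 7 and 65.7, 66.1 and 66.0 CPM in BE 6, 7 and 8. The groups were far apart, and the 3 BE libraries lay within 1 CPM of each other, so BE 6 did not stand with BP here. Its rise was 1.77 in log2 units (SE 0.138) and passed in edgeR (adjusted p = 0.0107). It passed in 13 of 19 alternatives. In the other 6 the adjusted p was 0.611 with the replicate number as a block, 0.119 in the fit of the 6 libraries alone, 0.0738 without BP 6, 0.0752 without BE 7 or without BE 8, and 0.0556 without BdE 7, with log2 fold changes between 1.67 and 1.79. The start of Ccdc71 lies in the following RefSeq window of GRCm38.p6, chr9:108460303-108460602 on the plus strand, 250 bases before to 50 after the start, which is shown because this is the gene with the clearest change:

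Ccdc71: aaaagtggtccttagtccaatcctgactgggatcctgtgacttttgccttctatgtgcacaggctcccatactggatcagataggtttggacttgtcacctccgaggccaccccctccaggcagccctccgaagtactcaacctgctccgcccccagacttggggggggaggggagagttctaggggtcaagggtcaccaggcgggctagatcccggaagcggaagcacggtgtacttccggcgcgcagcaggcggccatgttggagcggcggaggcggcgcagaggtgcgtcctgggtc

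Klhdc8b, a kelch-repeat gene, overlaps Ccdc71 on the other strand, and whether the counts used strand was not given in the sources used here. Its counts were 6399, 6716 and 6743 counts in BP and 6787, 10310 and 9340 in BE 6, 7 and 8. BE 6 was near BP in Klhdc8b and with the other BE libraries in Ccdc71, so the genes did not move together in that library. Whether reads were exchanged between the pair was not tested.

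Abl1, a non-receptor tyrosine kinase that acts on the cytoskeleton and in the response to DNA damage, was the other gene past the threshold (ENSMUSG00000026842, GRCm38 chromosome 2, 31688376 to 31800339, plus strand). It stood at 45.1, 57.6 and 59.1 CPM in BP and 171, 137 and 132 CPM in BE. Here BE 6 was the highest of the BE libraries, and the lowest BE value was more than double the highest BP value. Abl1 rose by 1.44 (SE 0.137, edgeR adjusted p = 0.0266). It passed in 9 of 19 alternatives, with a log2 fold change between 1.20 and 1.55 in all 19. The adjusted p was 0.611 with the replicate number as a block, 0.166 in the fit of the 6 libraries alone and 0.0555 without the FPKM filter. With 1 library left out it was 0.197 without BP 6, 0.0963 without BP 7, 0.107 without BE 7, 0.0752 without BE 8, 0.0651 without BdE 5, 0.0886 without BdE 6 and 0.102 without BdE 7.

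Gstp2, Tekt2 and Il6st had the next smallest p-values and missed the threshold; Tekt2, described further on, passed the filter only through BE libraries. Gstp2 and Gstp1, glutathione transferases that conjugate electrophiles, including alkylating drugs, both lay higher in every BE library. Gstp2 was at 18.7, 20.4 and 18.4 CPM in BP and 34.8, 48.8 and 43.2 CPM in BE (log2 fold change 1.14, SE 0.15, edgeR adjusted p = 0.229). Gstp1 was at 113, 120 and 96.0 CPM in BP and 168, 178 and 174 CPM in BE (0.66, adjusted p = 0.377). These are close paralogues, and how the counting split shared reads was not given in the sources used here. Of the 25 glutathione and antioxidant genes 15 had a positive log2 fold change, 2 lay above and 2 below BP in every library against 7.26% and 7.29% of all genes, and the median was 0.11. The members below were Gss, glutathione synthetase (-0.38), and Nqo1, a quinone reductase (-0.63).

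Il6st codes for gp130, the shared signalling receptor of the interleukin 6 family. It was at 228, 241 and 220 CPM in BP and 142, 132 and 153 CPM in BE (log2 fold change -0.69, edgeR adjusted p = 0.308). The groups did not overlap, and BE 6 lay between the other BE libraries. Dcaf17, a substrate receptor of a ubiquitin ligase, lay at 33.8, 32.5 and 29.2 CPM in BP and 16.9, 7.47 and 6.31 CPM in BE (-1.64, adjusted p = 0.377).

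**Figure D2:**
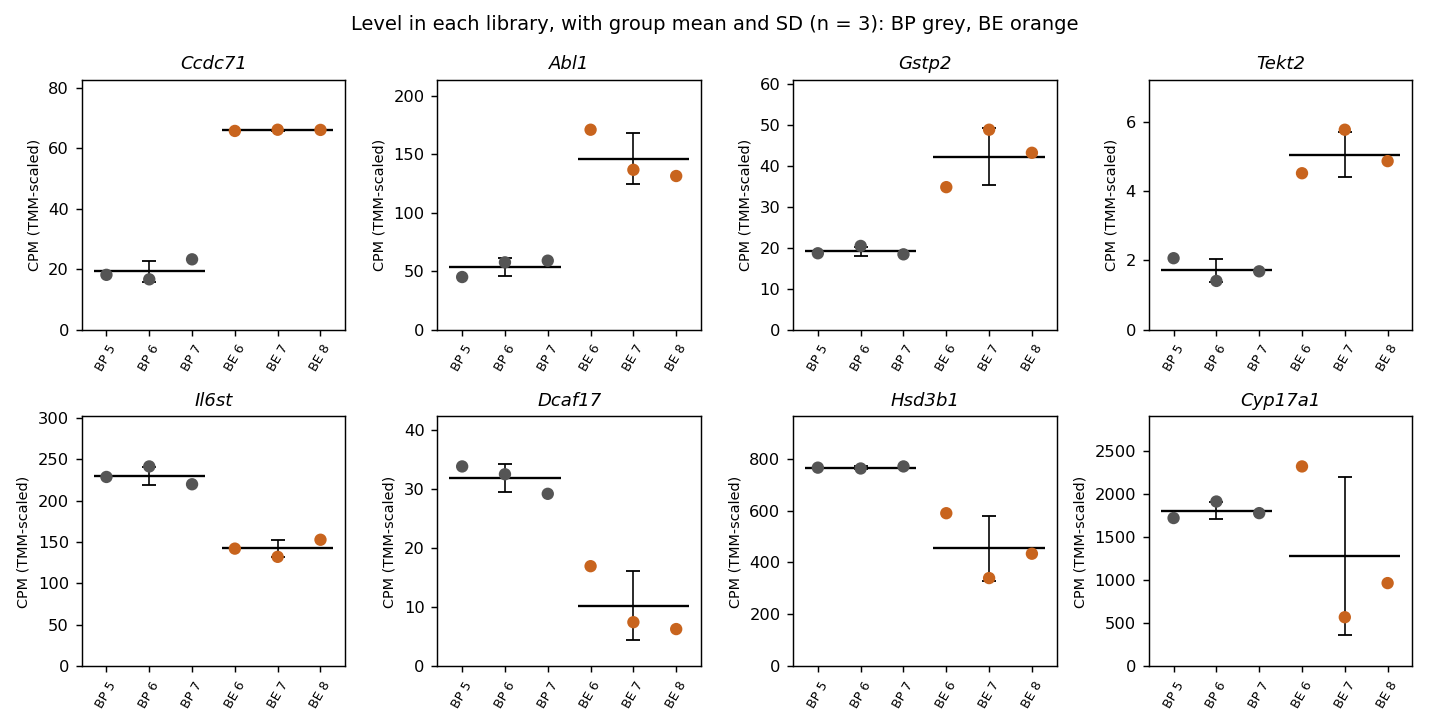
TMM-scaled CPM of 8 genes in each BP (grey) and BE (orange) library, with the mean and SD of each group (n = 3). Ccdc71, Abl1, Gstp2, Tekt2, Il6st, Dcaf17 and Hsd3b1 do not overlap between the groups, while in Cyp17a1 BE 6 lies above the BP libraries and BE 7 and BE 8 below them.

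Genes of elongating spermatids, the last stage before release of sperm, had the highest median log2 fold change of the 32 lists with at least 5 tested members. Odf1, a protein of the outer dense fibres of the sperm tail, was at 10.5, 8.17 and 7.997 CPM in BP and 38.9, 105 and 24.2 CPM in BE (log2 fold change 2.66, SE 1.12, edgeR adjusted p = 0.377). Smcp, a protein of the sperm mitochondrial capsule, was at 19.0, 19.4 and 18.7 CPM in BP and 89.0, 202 and 46.4 CPM in BE (2.57, SE 1.14, adjusted p = 0.377). In both genes every BE library stood above every BP library, but BE 7 was more than 4 times as high as BE 8. Oaz3, a spermatid antizyme that limits polyamine synthesis, was at 6.78, 5.97 and 6.79 CPM in BP and 20.6, 69.97 and 15.7 CPM in BE (2.44). Cabs1, a calcium-binding protein of the sperm tail, was at 1.35, 1.70 and 2.06 CPM in BP and 5.29, 15.6 and 4.03 CPM in BE (2.29). The order BE 7, BE 6, BE 8 was the same in all 4 genes.

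Of the 16 elongating spermatid genes 8 passed the FPKM filter, 3 of them with the help of BE libraries. All 8 had a positive log2 fold change, 4 lay above BP in every library against 7.26% of all genes, and the median was 1.91. Among the 4, Cabs1 needed BE libraries to pass, with an FPKM of 0.818 to 1.21 in BP, and the filter favours higher BE in such genes. None of the 8 passed the threshold, and none did without BE 6, where the median was 2.24. The median without BE 7 was 1.24. Over all 16 genes, tested or not, the summed counts were 9616, 11006 and 12087 in BP and 20420, 36767 and 15518 in BE, or 157 to 174 CPM without TMM scaling in BP and 298, 530 and 227 CPM in BE 6, 7 and 8. Of the late protamine and transition protein genes, Tnp1 had 0 to 13 counts in any library and Prm3 0 to 10. Prm2, which passed the filter only with BE libraries, had 41, 154 and 229 counts in BP and 142, 621 and 411 in BE, so the groups overlapped. Of the 8 tested genes 6 have a RefSeq promoter window, and the cAMP response element (TGACGTCA, either strand), a site bound by the spermatid activator CREM, was in 0 of the 6, against 2.03% of all genes. That says only that these letters are not in this window.

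The 10 largest differences with higher BE over all genes included Odf1 and Oaz3 and also Dbil5, Crisp2 and Bcl2l14, which are in none of the 39 lists. Dbil5, an acyl-CoA-binding protein of late spermatids, was at 3.41, 2.27 and 3.22 CPM in BP and 12.3, 29.9 and 8.53 CPM in BE (2.51). Crisp2, a protein of the acrosome and tail, was at 5.62, 5.28 and 3.37 CPM in BP and 14.9, 37.5 and 9.53 CPM in BE (2.12). Bcl2l14, a BCL2 family member, was at 3.12, 2.24 and 2.10 CPM in BP and 10.6, 23.3 and 6.59 CPM in BE (2.44). It was tested only because of its BE libraries, with an FPKM of 0.453 to 0.698 in BP, so it had to be higher in BE. In each of the 3 genes BE 7 was highest and BE 8 lowest of the BE libraries (edgeR adjusted p = 0.377 for each). The others of the 10 were Erdr1 (2.17), Npas4 (1.63), Napg (1.39), Ccdc71 and Abl1.

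Earlier germ cell genes varied within each group. Sycp3, a component of the synaptonemal complex of meiosis, was at 5.38, 3.86 and 0.547 CPM in BP and 7.87, 8.004 and 1.74 CPM in BE (0.85, edgeR adjusted p = 0.551). Ddx4, an RNA helicase present through most germ cell stages, was at 13.1, 10.4 and 2.46 CPM in BP and 16.2, 15.9 and 4.98 CPM in BE (0.52, adjusted p = 0.642). Both were low in BP 7 and BE 8, so the groups overlapped. Of 20 spermatocyte genes 10 were tested, 8 of them with the help of BE libraries. All 10 were positive, and 0 lay above BP in every library against 7.26% of all genes. The median was 0.54 (0.29 without BE 6). The summed counts of all 20 came to 103, 86.5 and 30.6 CPM without TMM scaling in BP and 146, 126 and 46.0 CPM in BE.

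Among round spermatid genes 3 of 16 were tested, 2 of them with the help of BE libraries. Spaca1, an acrosomal membrane protein, was at 5.002, 6.74 and 5.74 CPM in BP and 6.88, 12.8 and 10.8 CPM in BE, and passed the filter without BE. Pgk2, the glycolytic kinase that replaces Pgk1 in these cells, was at 0.914, 1.24 and 1.32 CPM in BP and 5.95, 13.0 and 3.04 CPM in BE. Its FPKM was 0.516 to 0.717 in BP, so it was tested only through BE and had to be higher there. Ldhc, the lactate dehydrogenase of germ cells, had 425, 589 and 79 counts in BP and 1233, 847 and 15 in BE, and the groups overlapped. So 2 of the 3, Spaca1 and Pgk2, lay above BP in every library. The filter fixed this for Pgk2, so the count cannot be compared with the 7.26% of all genes. The summed counts of all 16 genes, tested or not, came to 18.2, 21.8 and 11.5 CPM without TMM scaling in BP and 41.5, 46.2 and 18.9 CPM in BE, which puts BE 8 within the BP range. Tekt2, a tektin of the flagellar axoneme, was at 2.06, 1.41 and 1.68 CPM in BP and 4.51, 5.76 and 4.86 CPM in BE (log2 fold change 1.55, SE 0.22, edgeR adjusted p = 0.258). It too was tested only through BE, with an FPKM of 0.665 to 0.981 in BP and 2.12 to 2.52 in BE, so its direction was set by the filter. Rsph1, a radial spoke protein, was at 30.1, 35.9 and 32.5 CPM in BP and 39.3, 58.5 and 48.0 CPM in BE (0.57, adjusted p = 0.377). Of the 22 genes of motile cilia and axonemes 4 were tested, 3 positive and 1 negative. Without BE 6, 3 passed as higher and 1 as lower, against 14.3% and 16.6% of all genes.

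**Figure D3:**
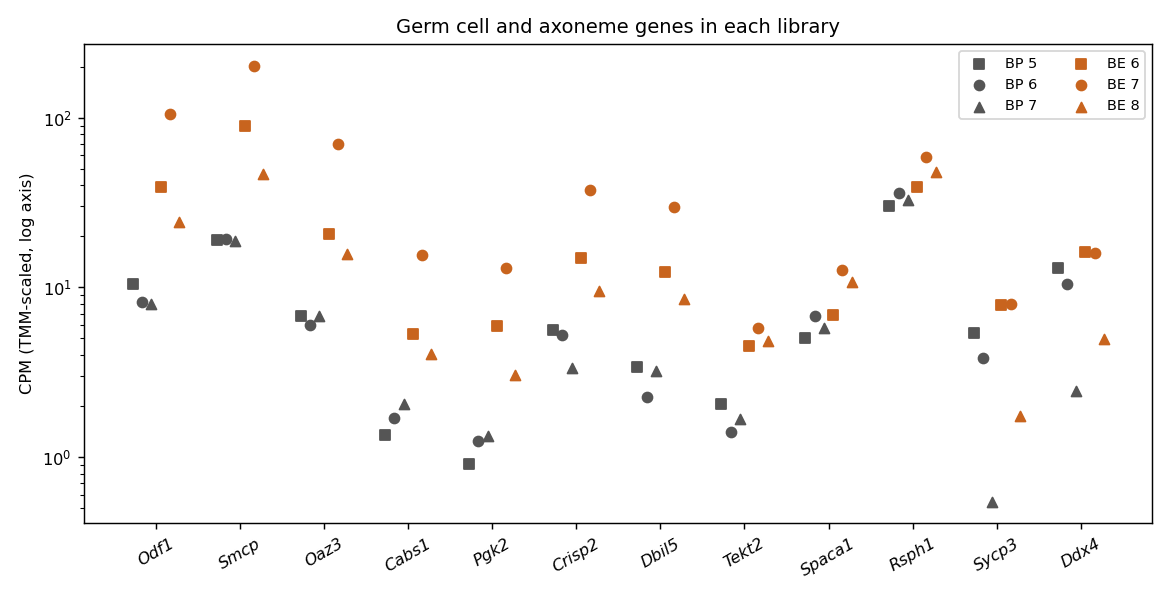
TMM-scaled CPM (log axis) of 12 germ cell and axoneme genes in each BP (grey) and BE (orange) library. The spermatid genes Odf1, Smcp, Oaz3, Cabs1, Crisp2 and Dbil5 are higher in every BE library, with BE 7 at the top; Sycp3 and Ddx4 are low in BP 7 and BE 8.

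Spermatogonial genes did not move one way. Id4, an inhibitor of differentiation that marks stem spermatogonia, was at 29.1, 28.0 and 25.8 CPM in BP and 30, 43.0 and 48.3 CPM in BE (0.55, edgeR adjusted p = 0.377), and Foxo1, a factor needed for stem cell maintenance, was at 43.1, 44.6 and 49.3 CPM in BP and 41.5, 30.2 and 28.2 CPM in BE (-0.46, adjusted p = 0.377). Of the 16 undifferentiated spermatogonial genes 6 were tested, 2 positive and 4 negative. Lin28a and Sall4 of this list missed the FPKM filter, with 258, 163 and 0 and with 194, 147 and 13 counts in BP. Id4 had 1753, 2009 and 1795 counts there and Foxo1 2592, 3202 and 3430, so neither was low in BP 7. Which cells the RNA of Id4 and Foxo1 came from was not tested, so their levels cannot be read as those of spermatogonia. Kit, the receptor of differentiating spermatogonia that Leydig cells also carry, was at 131, 133 and 142 CPM in BP and 143 CPM in BE 6, but 62.5 and 47.3 CPM in BE 7 and BE 8 (-0.68, adjusted p = 0.378; -1.30 and adjusted p = 0.0024 without BE 6). Of the 9 differentiating spermatogonial genes 8 were tested, 5 of them with the help of BE libraries; 5 were positive and 3 negative. The median of 0.08 had no stable sign: it was 0.59 without BP 5, -0.31 without BE 6, -0.65 over genes with FPKM 1 in all 6 libraries and 0.79 with the replicate number as a block.

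Genes that supply steroid hormone precursors lay lower in BE 7 and BE 8 and not in BE 6. Leydig cells turn cholesterol into testosterone, and the steroid enzymes and the sterol pathway both showed this split. Cyp11a1, which starts steroid synthesis by cutting the cholesterol side chain, was at 1051, 1018 and 854 CPM in BP, 1237 CPM in BE 6, and 188 and 491 CPM in BE 7 and BE 8 (-0.61, edgeR adjusted p = 0.594; -1.52 and adjusted p = 0.0774 without BE 6, so it did not pass there either). Star, the protein that carries cholesterol into mitochondria, was at 528, 799 and 786 CPM in BP, 800 CPM in BE 6, and 231 and 331 CPM in BE 7 and BE 8 (-0.63; -1.33 and adjusted p = 0.0111 without BE 6). Hsd3b1, the dehydrogenase of the next step, was the exception and was lower in every BE library, at 765, 762 and 770 CPM in BP and 590, 340 and 434 CPM in BE (-0.75, SE 0.18, adjusted p = 0.377). Insl3, the peptide hormone of Leydig cells, had 5082, 5512 and 5022 CPM in BP and 5314, 5219 and 5294 CPM in BE (0.02), so the Leydig list did not differ throughout. Of its 15 members 13 were negative, 1 lay below BP in every library against 7.29% of all genes, and the median was -0.49 (-0.98 without BE 6, where 8 passed as lower against 16.6% of all genes, and -0.16 without BE 7).

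Cholesterol synthesis as a list showed the same split, lower in BE 7 and BE 8 and not in BE 6. Idi1, the isopentenyl isomerase, was at 54.6, 49.8 and 62.3 CPM in BP, 54.4 CPM in BE 6, and 12 and 15.1 CPM in BE 7 and BE 8 (-1.03, edgeR adjusted p = 0.377; -2.04 and adjusted p = 0.00242 without BE 6). Msmo1, a sterol demethylase, was the member below BP in every library (1 of 22, against 7.29% of all genes). It was at 166, 176 and 178 CPM in BP and 113, 130 and 124 CPM in BE (-0.51, SE 0.12, adjusted p = 0.377). Of the 22 tested members of 23, 21 were negative and 1 (Ebp) positive. The median was -0.59; it was -1.31 without BE 6, where 15 members passed as lower and 0 as higher against 16.6% and 14.3% of all genes, and -0.36 without BE 7.

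A CCAAT box, the site of the factor NF-Y that works with the sterol regulators, was searched on both strands in the RefSeq promoter windows. It was in 15 of the 15 tested cholesterol genes that have a window, against 41.1% of all genes with one. Of the other 7 tested members no window was used here. These are shown because they carry several copies, in GRCm38.p6, 250 bases before to 50 after the start, with CCAAT or its reverse complement ATTGG in capitals. They lie at chr8:64733529-64733828 (minus strand), chr13:8885356-8885655 (plus) and chr13:119690101-119690400 (plus) and hold 3, 2 and 4 copies. A match describes the letters and is no measure of binding:

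Msmo1: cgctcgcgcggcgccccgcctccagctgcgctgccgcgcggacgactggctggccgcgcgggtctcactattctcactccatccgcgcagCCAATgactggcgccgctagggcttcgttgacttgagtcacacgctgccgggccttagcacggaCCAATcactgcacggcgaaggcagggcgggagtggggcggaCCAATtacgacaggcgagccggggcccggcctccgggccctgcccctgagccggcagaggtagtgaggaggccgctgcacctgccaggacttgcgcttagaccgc

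Idi1: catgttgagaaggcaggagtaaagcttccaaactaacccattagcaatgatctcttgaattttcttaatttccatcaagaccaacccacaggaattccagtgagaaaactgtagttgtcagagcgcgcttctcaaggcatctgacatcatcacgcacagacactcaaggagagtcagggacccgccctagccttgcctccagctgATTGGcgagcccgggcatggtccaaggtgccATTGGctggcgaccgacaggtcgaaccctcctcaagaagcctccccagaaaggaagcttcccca

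Hmgcs1: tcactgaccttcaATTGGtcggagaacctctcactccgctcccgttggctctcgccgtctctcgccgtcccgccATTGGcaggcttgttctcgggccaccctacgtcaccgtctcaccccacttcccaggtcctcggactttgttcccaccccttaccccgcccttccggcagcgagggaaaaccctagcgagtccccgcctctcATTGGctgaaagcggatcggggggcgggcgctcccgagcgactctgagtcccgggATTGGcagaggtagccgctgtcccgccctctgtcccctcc

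Peritubular myoid genes, which code for the smooth muscle proteins of the tubule wall, lay lower in BE. All 12 tested members of 13 were negative, and 6 lay below BP in every library, against 7.29% of all genes. Des, the muscle filament desmin, was at 40.0, 42.5 and 44.2 CPM in BP and 36.0, 16.4 and 17.0 CPM in BE (-0.87, edgeR adjusted p = 0.377), and Acta2, smooth muscle actin, at 380, 379 and 410 CPM in BP and 349, 214 and 230 CPM in BE (-0.56, adjusted p = 0.377). Cnn1, a calponin, was at 12.03, 11.9 and 16.5 CPM in BP and 10.7, 5.33 and 5.32 CPM in BE (-0.92). In each of them BE 6 was below BP but nearer to it than BE 7 and BE 8. The others below in every library were Actg2, Tpm2 and Lmod1, while Tpm1 and Mylk differed by -0.05 and -0.03. The list median was -0.49, and -0.68 without BE 6, where 9 members passed as lower against 16.6% of all genes.

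Macrophage genes were negative in 14 of 14 tested members, with 2 below BP in every library against 7.29% of all genes, among them C1qb, and a median of -0.52. Csf1r, the receptor that macrophages need to survive, was at 130, 137 and 140 CPM in BP, 137 CPM in BE 6, and 45.2 and 49.9 CPM in BE 7 and BE 8 (-0.81, edgeR adjusted p = 0.377; -1.51 and adjusted p = 0.00226 without BE 6). Without BE 6, 11 of the 14 passed as lower against 16.6% of all genes, with a median of -0.94; it was -0.32 without BE 7. Stromal fibroblast genes were negative in 9 of 10 tested members, with a median of -0.51 (-0.25 without BE 8 and -0.29 without BE 7). Without BE 6 their median was -1.01, and 7 passed as lower against 16.6% of all genes. Tcf21, a factor of interstitial progenitors, was lower in every BE library. It was at 44.9, 44.6 and 45.8 CPM in BP and 38.4, 20.7 and 22.6 CPM in BE (-0.73, edgeR adjusted p = 0.377). Endothelial genes had a median of -0.23, with 0 of 11 below BP in every library against 7.29% of all genes. This median was -0.56 without BE 6, where 4 passed as lower against 16.6% of all genes, and -0.07 without BE 8.

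Sertoli cell genes leaned the other way in BE 7 and BE 8. Of 22 members 16 were positive and 0 lay above BP in every library against 7.26% of all genes, with a median of 0.17. Cst12, a cystatin, was at 454, 487 and 517 CPM in BP, 408 CPM in BE 6, and 779 and 828 CPM in BE 7 and BE 8 (0.47, edgeR adjusted p = 0.379; 0.73 and adjusted p = 0.00563 without BE 6). Sox9, which sets the identity of Sertoli cells, was at 153, 181 and 188 CPM in BP and 159, 164 and 173 CPM in BE (-0.08). Without BE 6 the list median was 0.28, with 9 members passing as higher against 14.3% of all genes and 1, Trf, as lower; without BE 7 it was 0.11.

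The 13 protein genes of the mitochondrial genome were positive in 13 of 13, with a median of 0.72. mt-Co1, a subunit of cytochrome oxidase, was at 28870, 30230 and 33390 CPM in BP, 29520 CPM in BE 6, and 66790 and 64960 CPM in BE 7 and BE 8 (0.80, edgeR adjusted p = 0.377). In 0 of the 13 did every BE library lie above BP, against 7.26% of all genes, since BE 6 lay with BP. Without BE 6, 13 passed as higher against 14.3% of all genes (median 0.99). The 25 nuclear genes of the respiratory chain had a median of 0.06, with 13 positive. Without BE 6 their median was 0.10, with 8 passing as higher and 4 as lower, against 14.3% and 16.6% of all genes. Among those passing as lower was Atp5b, the catalytic subunit of the ATP synthase. It was at 631, 657 and 655 CPM in BP, 669 CPM in BE 6, and 334 and 404 CPM in BE 7 and BE 8. Its log2 fold change was -0.47, and -0.81 without BE 6 (edgeR adjusted p = 0.00251). The genes of the mitochondrial genome are short, and with the trend on gene length removed the 13 had a median of 0.57, the cholesterol list -0.58, the macrophage list -0.57 and the spermatid list 1.74. With all mitochondrial genes left out of the fit, Ccdc71 and Abl1 still passed, and the medians of the cholesterol, macrophage and elongating spermatid lists were -0.59, -0.52 and 1.91.

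**Figure D4:**
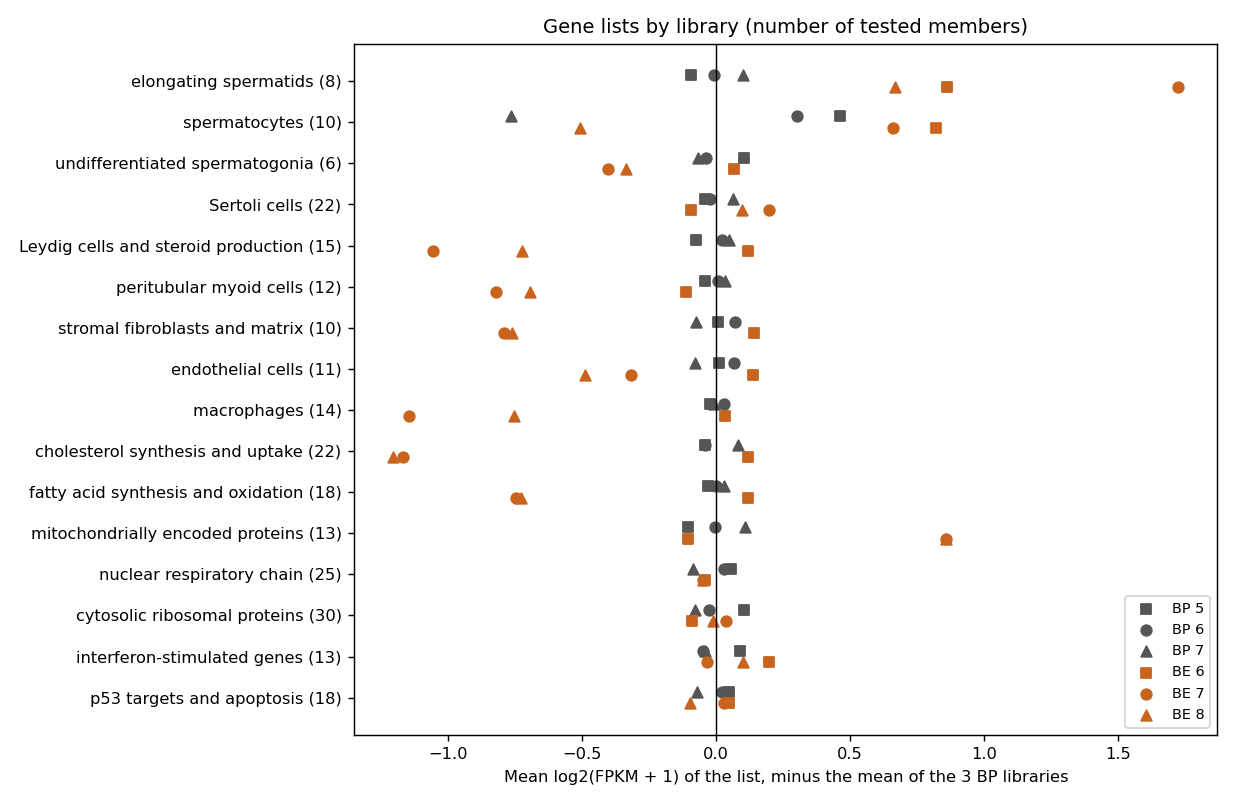
Mean log2(FPKM + 1) over the tested members of 16 gene lists in each library, minus the mean of the 3 BP libraries (grey: BP; orange: BE; squares, circles and triangles: the libraries in order of number). Elongating spermatid genes are above BP in all 3 BE libraries, while the Leydig, macrophage, cholesterol and mitochondrial lists are shifted in BE 7 and BE 8 with BE 6 near BP.

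Interferon-stimulated genes split. Of 13 tested members of 18, 10 were positive, 5 lay above BP in every library against 7.26% of all genes, and 1 below, with a median of 0.14 (0.31 without BP 5 and 0.08 without BE 6). Oas2, an RNA sensor, was at 8.04, 7.35 and 6.92 CPM in BP and 11.6, 13.2 and 13.1 CPM in BE (log2 fold change 0.77). Irf7, an interferon regulator, was at 8.72, 7.504 and 8.10 CPM in BP and 9.68, 12.2 and 15.7 CPM in BE (0.63). Ifit3, an antiviral protein, was at 7.86, 7.94 and 8.63 CPM in BP and 12.9, 9.93 and 11.7 CPM in BE (0.50). In these genes BE 6 lay above BP together with BE 7 and BE 8, as it did in Oasl2 (0.45) and Ddx58 (0.14). The edgeR adjusted p was 0.377 for each of Oas2, Irf7, Ifit3 and Oasl2 and 0.434 for Ddx58. The core of the interferon response element, GAAANNGAA on either strand, was in 7 of the 10 tested members with a promoter window, against 9.76% of all genes. Ifit3 holds 3 copies, in capitals in its window of GRCm38.p6 at chr19:34583279-34583578 on the plus strand, where they appear as the reverse complement:

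Ifit3: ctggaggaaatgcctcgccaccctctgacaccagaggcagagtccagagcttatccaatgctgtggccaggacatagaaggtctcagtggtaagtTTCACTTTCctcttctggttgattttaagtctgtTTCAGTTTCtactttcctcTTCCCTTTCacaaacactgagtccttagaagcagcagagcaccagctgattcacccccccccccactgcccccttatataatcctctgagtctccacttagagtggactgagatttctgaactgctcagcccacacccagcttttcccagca

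Genes of the p53 response, which busulfan damage can engage, gave 12 positive of 18 tested, with 4 above BP in every library and 1 below, against 7.26% and 7.29% of all genes, and a median of 0.05 (0.13 without BE 6 and 0.01 without BE 8). Mdm2, which degrades p53, was at 56.6, 58.5 and 54.2 CPM in BP and 59.5, 82.9 and 67.5 CPM in BE (0.31, edgeR adjusted p = 0.377). Bbc3, which codes for the death effector PUMA, was at 12.9, 11.1 and 8.13 CPM in BP and 14.5, 19.6 and 18.1 CPM in BE (0.70), and Bcl2l11, which codes for BIM, was at 39.2, 45.5 and 37.2 CPM in BP and 64.5, 54.4 and 52.3 CPM in BE (0.49). Heat shock genes were negative in 11 of 14, and Hspa8, a constitutive chaperone, was at 1151, 1137 and 1087 CPM in BP and 950, 808 and 915 CPM in BE (-0.34, adjusted p = 0.377).

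Among the 10 genes with the largest differences in the direction of lower BE, none passed in the 9-library fit (edgeR adjusted p = 0.377 for each). Selenoi, the enzyme that makes phosphatidylethanolamine, was at 24.4, 20.2 and 28.2 CPM in BP and 6.91, 1.97 and 3.90 CPM in BE (-2.51, SE 0.51). It passed the threshold in 3 of 18 alternatives. Selenoi was tested only because of its BP libraries, with an FPKM of 0.123 to 0.474 in BE, so it had to be lower there. Ablim1, an actin-binding protein, was at 48.8, 65.4 and 53.7 CPM in BP and 32.3, 4.27 and 5.43 CPM in BE (-2.00; -3.53 and adjusted p = 0.00139 without BE 6). The red cell carbonic anhydrase Car1 (-1.40), the calcium store protein Casq2 (-1.82; -3.16 and adjusted p = 0.0111 without BE 6), Rps27rt (-1.50) and Dcaf17 were lower in every BE library without a BP library standing apart. In Car4, a membrane carbonic anhydrase, BP 5 alone was high, at 41.4 CPM against 6.73 and 7.74 in BP 6 and 7 and 4.94 to 5.54 in BE; the difference of -1.85 was -0.49 without BP 5. Insr, the insulin receptor (-1.71; -1.07 without BP 5), Suox, sulfite oxidase (-1.37; -0.79) and Sprr2a1 (-1.44; -1.02) were also highest in BP 5.

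Inflammatory cytokine and receptor genes were negative in 9 of 15 tested members, with 2 below BP in every library against 7.29% of all genes and a median of -0.32 (-0.16 without BP 5 and -0.14 without BE 7). Genes of the cell cycle and replication were negative in 14 of 20, with a median of -0.22, which was -0.50 without BE 6, 0.05 without BP 5 and -0.01 without BE 8. Cytosolic ribosomal protein genes were positive in 17 of 30, with a median of 0.04, and 4 lay below BP in every library against 7.29% of all genes, among them Rpl3 (-0.28) and Rps6 (-0.18). Genes of vesicle formation and uptake, the machinery that makes and takes in exosomes, were positive in 10 of 22, with 2 above BP and 2 below it in every library, against 7.26% and 7.29% of all genes, and a median of -0.08 (-0.20 without BE 6). Cd63, a tetraspanin of exosomes, was at 118, 118 and 85.3 CPM in BP and 126, 183 and 182 CPM in BE (0.61, edgeR adjusted p = 0.377). Spermatogonial niche factors had a median of -0.10 over 11 tested members, blood-testis barrier junction genes -0.07 over 15, retinoic acid genes -0.06 over 14, and TGF-beta, activin and BMP genes -0.06 over 21. Fatty acid genes were negative in 16 of 18, with a median of -0.22 (-0.36 without BE 6, where 11 passed as lower against 16.6% of all genes). Immune cell lists other than macrophages were barely measurable: 2 of 12 T and natural killer cell genes, 0 of 8 B and plasma cell genes and 1 of 10 neutrophil genes were tested.

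BP 5 carried transcripts of the epididymis, the duct next to the testis. Crisp1, an epididymal secretory protein, had 38837 counts in BP 5 and 0 in the other 5 libraries. Adam7, an epididymal membrane protein, had 7920 counts there and 0 to 4 in the others, and Spink8 had 11742 against 78 to 162. Of the 15 genes of the epididymis and rete list 4 were tested; their mean log2(FPKM + 1) was 4.73 in BP 5 and 1.36 to 1.69 in the other 5, and 3 of the 15 (Lcn5, Lcn8 and Bsph1) were at 0 in all 6. The list median of -1.56 was 0.32 without BP 5, so its sign rests on that library.

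Some genes had counts near 0 in some libraries and many in others. Kctd12, a subunit of GABA(B) receptors, had 5241, 6931 and 8128 counts in BP, 6911 in BE 6 and 0 in BE 7 and BE 8. The 0 counts allow up to 0.0433 and 0.0439 CPM without TMM scaling in BE 7 and BE 8. Nnt, the mitochondrial transhydrogenase, is listed under a pair of overlapping records. The first had 3959, 2814 and 5219 counts in BP and 0, 4584 and 1 in BE, the second 618, 301 and 246 in BP and 7187, 129 and 1793 in BE, and their sum was 4577, 3115 and 5465 in BP and 7187, 4713 and 1794 in BE. The sum overlapped between the groups while each record alone switched between libraries. Of the 14097 genes 27.3% overlap another tested gene, as did 3 of the 10 largest differences in each direction.

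**Figure D5:**
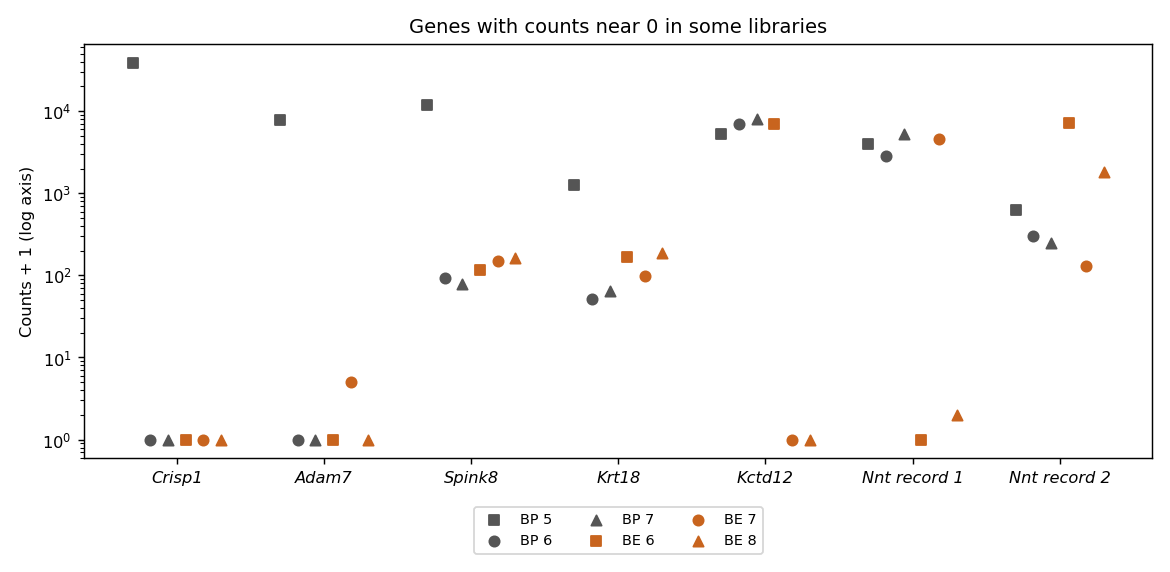
Counts + 1 (log axis) of 7 records in each BP (grey) and BE (orange) library. Crisp1, Adam7 and Spink8 are high in BP 5, Kctd12 is at 0 counts in BE 7 and BE 8, and the records of Nnt switch between libraries.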

How the data were processed

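RNA-seq of mouse testis was analysed from the deposited table, which gives a count and an FPKM per gene and library. Per the file headers the count is the number of reads on a gene, and each deposited count is a whole number. FPKM, computed by the authors, is scaled to gene length and library total; it served here only for the filter and for list levels. The submitters' processing notes name Bowtie 0.12.2 and mm8 without roles, while 51957 of 55401 records (93.8%) have the coordinates of GRCm38 in GENCODE M21. The counting program and strand setting were not given in the sources used here.

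Genes that reached FPKM 1 in 3 or more of the 6 BP and BE libraries were tested with edgeR 4.0.16 (R 4.3.3): TMM, 9 libraries, a term for the group, quasi-likelihood test of BE minus BP, two-sided, Benjamini-Hochberg adjustment over 14097 genes, threshold 0.05. The biological coefficient of variation was 0.276. The fit was also run on simulated data, and the outcome is not reported here. The 39 gene lists hold 693 distinct genes and are described by counts and medians without a set test. The members and lists were chosen with earlier results of these data known. Sequences come from RefSeq promoter tables (GRCm38.p6).

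Genes are named by a rule: those past the threshold; the 10 largest rises and falls among genes with an unadjusted p under 0.05, no overlap between groups and a mean of 10 CPM in 1 group; the same without BE 6; from each list up to 4 members that do not overlap, or the 2 most abundant; the 10 most abundant genes; genes with at most 3 counts in 1 library and 1000 or more in another; and reference genes (Ddx4, Sycp3, Prm1, Sox9, Cyp11a1, Kit). List members outside the rule, Klhdc8b, Crisp1, Adam7 and the fat genes were chosen after their values were seen. DESeq2 1.42.0, other scalings and filters, a length correction and leaving out each library were alternatives. Values of some list members are not reported here.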

Additional observations from a re-analysis of the deposited data

How the results depend on the processing

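The count of genes past the threshold was 2 with all 9 libraries and depended on which libraries entered. It was 1 without the FPKM filter, 0 with the 6 libraries alone and 55 by DESeq2 (31 higher, 24 lower), and 0 to 4358 with 1 library left out. With the 6 libraries alone edgeR had 1158 genes at an unadjusted p under 0.05. With a replicate block edgeR called 0 genes (482 at an unadjusted p under 0.05). The numbers were not taken as a pairing: only 6 and 7 occur in both BP and BE, where same-numbered libraries had correlated deviations of r = -0.00763 and -0.0661. Over the same-numbered pairs with BdE r ran from -0.113 to 0.211, with BE 6 and BE 7 at 0.211 and 0.148, and over pairs of different numbers from -0.167 to 0.175. The count was 6 without BP 5, 4358 without BE 6 and 3096 without BP 5 and BE 6 together, an alternative chosen after seeing the data. It was 0 without BP 6, BE 7, BE 8 or BdE 7. Genes above BP in every BE library numbered 1720 and genes below 1786 without the filter, where more genes are counted; with 1 library left out they ranged from 1023 to 4356 and from 913 to 4465, and without BP 5 and BE 6 they were 4876 and 4946. Of 32 lists with at least 5 tested members, 19 had a negative median (18 to 21 over the alternatives). Of 2772 values of 148 named genes under alternatives, 0 changed sign with a call, 167 newly passed and 16 no longer passed; 54 changed sign without passing in either fit. Of 607 list medians, 583 moved by less than the spread between libraries and 14 had another sign. That spread was the larger of the BP and BE SDs of the list level, and the BE SD takes in BE 6. The macrophage median of -0.52 counted as within it at -0.94 without BE 6. Thus the count of 583 says little about how far the medians depend on BE 6. The causes were not tested. With 3 libraries a group, small differences were not detectable where libraries of a group differed as BE 6 did from BE 7 and BE 8. Large differences could also miss the threshold, as did Odf1 (log2 fold change 2.66) and Ablim1 (-2.00), with an edgeR adjusted p = 0.377 for each.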

Other observations

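Fat cell genes followed single libraries and not the groups. Cfd, the adipocyte protease adipsin, had 468, 1195 and 3 counts in BP 5, 6 and 7 and 374, 153 and 758 counts in BE 6, 7 and 8. Adipoq, the hormone adiponectin, had 102, 212 and 10 counts in BP and 49, 13 and 120 in BE. Fabp4, a fatty acid carrier, had 352, 1194 and 100 counts in BP and 464, 202 and 963 in BE. BP 7 was the lowest library in each of them, and the groups overlapped (edgeR adjusted p = 0.924 for Cfd, 0.791 for Adipoq and 0.988 for Fabp4).

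Red cell and platelet genes had a median of 0.25 over 6 tested members of 11, with 5 positive; the median was 0.08 without BE 8 and -0.35 with the replicate number as a block. Hbb-bs, a beta globin, was at 42.9, 41.5 and 55.9 CPM in BP and 56.0, 47.8 and 87.0 CPM in BE (0.44, edgeR adjusted p = 0.602), and Pf4, a platelet chemokine, was lower in every BE library, at 17.3, 18.2 and 17.4 CPM in BP and 16.9, 10.3 and 13.6 CPM in BE (-0.38, adjusted p = 0.38). Immediate early genes gave 10 positive of 15 tested, with 2 above BP in every library against 7.26% of all genes. Npas4, a transcription factor induced by activity in neurons, was at 13.2, 18.9 and 8.99 CPM in BP and 21.5, 57.5 and 47.8 CPM in BE (1.63, adjusted p = 0.377), and Atf3, a stress-induced factor, at 4.35, 4.93 and 5.68 CPM in BP and 6.69, 8.47 and 7.90 CPM in BE (0.62, adjusted p = 0.377).

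Spp1, the osteopontin gene, was at 10.1, 13.8 and 11.2 CPM in BP, 9.93 CPM in BE 6, 14.2 CPM in BE 7 and 132 CPM in BE 8 (2.15, edgeR adjusted p = 0.377), so its difference rests on BE 8. Dhh, the Sertoli cell ligand of hedgehog signalling, was at 36.0, 36.4 and 44.4 CPM in BP and 34.8, 196 and 19.9 CPM in BE (1.11, adjusted p = 0.539), so its difference rests on BE 7.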
